A study of Mus musculus with 8 samples.

Results

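The genes described here are 10 of the 32285 genes listed in each matrix of a single-nucleus RNA study of the adult mouse heart. They are the transforming growth factor beta (TGF-β) ligands Tgfb1, Tgfb2 and Tgfb3, the receptors Tgfbr1, Tgfbr2 and Tgfbr3, the latent binding proteins Ltbp1, Ltbp2 and Ltbp4, and Postn, which encodes the matricellular protein periostin. They were chosen by symbol, and each symbol matched 1 gene. The study labels its hearts by sex and by genotype, as wild type without a transgene (nTg) or as carrying a cyclin A2 transgene (Tg). The 5 libraries used here are 1 labelled nTg female (replicate 1), 2 labelled Tg female and 2 labelled Tg male, and values of a pair are given with replicate 1 first. Nuclei were taken from homogenised heart tissue and run on 10x Genomics droplets. Strain, age beyond adult, the number of hearts behind a library and the promoter that drives the transgene are not given in the sources used here. The other 3 nTg libraries were not analysed here, because each of their matrices had another number of columns than its own barcode list. Those 3 matrices were identical in all values to the ones of Tg female 2, Tg male 1 and Tg male 2. Thus 3 of the 4 Tg libraries used here stand under both genotype labels. Among labels and file sizes, only their barcode lists tie them to the Tg label, and their Ccna2 levels are given below.

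TGF-β is secreted in a latent form, in which the ligand is held by its own propeptide and often by a latent TGF-β binding protein that ties the complex to the extracellular matrix. Once released, the ligand binds the type 2 receptor encoded by Tgfbr2, which recruits and phosphorylates the type 1 receptor encoded by Tgfbr1, and SMAD proteins carry the signal to the nucleus. Betaglycan, encoded by Tgfbr3, presents ligand to this pair and matters most for the ligand encoded by Tgfb2. In the heart the pathway is best known for fibroblast activation, matrix deposition and valve formation, and Postn is widely used as a marker of activated fibroblasts and of valve mesenchyme.

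Promoters of the members were looked up in RefSeq (GRCm38.p6), which gave a start site for 8 of the 10 genes and no entry for Tgfb3 and Tgfbr3. The 250 bases before the start were searched on both strands for TATAAA (the core of a TATA box), GGGCGG (a GC box) and TGACGTCA (a palindromic cAMP response element). The windows of 4 genes are shown. Tgfb1 and Tgfb2 are ligands with different cell type distributions, and Ltbp1 and Postn are members with a wide range of levels. Each sequence runs 5′ to 3′ on the strand of its gene and ends at the base before the start, with matches in capitals.
Tgfb1 promoter, plus strand, chr7:25686752-25687001: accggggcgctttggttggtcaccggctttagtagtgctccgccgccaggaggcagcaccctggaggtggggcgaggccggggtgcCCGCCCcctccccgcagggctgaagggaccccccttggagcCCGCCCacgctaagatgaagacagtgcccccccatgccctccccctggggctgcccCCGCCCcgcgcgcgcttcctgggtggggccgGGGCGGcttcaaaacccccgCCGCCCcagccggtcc
Tgfb2 promoter, minus strand, chr1:186705990-186706239: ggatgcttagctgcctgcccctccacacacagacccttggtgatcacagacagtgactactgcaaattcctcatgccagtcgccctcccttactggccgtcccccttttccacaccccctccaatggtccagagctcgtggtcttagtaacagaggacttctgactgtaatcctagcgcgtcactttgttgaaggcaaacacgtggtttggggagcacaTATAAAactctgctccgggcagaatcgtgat
Ltbp1 promoter, plus strand, chr17:75005279-75005528: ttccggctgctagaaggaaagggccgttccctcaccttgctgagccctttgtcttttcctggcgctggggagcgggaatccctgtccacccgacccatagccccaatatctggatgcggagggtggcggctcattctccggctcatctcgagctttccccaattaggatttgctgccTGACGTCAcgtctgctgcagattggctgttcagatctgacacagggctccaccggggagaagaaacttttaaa
Postn promoter, plus strand, chr3:54360857-54361106: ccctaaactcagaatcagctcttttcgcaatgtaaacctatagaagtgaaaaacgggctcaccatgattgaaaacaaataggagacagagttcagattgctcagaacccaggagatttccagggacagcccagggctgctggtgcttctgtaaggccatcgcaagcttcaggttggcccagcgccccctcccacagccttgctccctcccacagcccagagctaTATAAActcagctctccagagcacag
The Tgfb1 window held 5 GC boxes and no TATA core, with a GC content of 75.2% against a median of 52.4% over all 32851 promoter windows. The Tgfb2 and Postn windows each held 1 TATA core, which began 31 and 26 bases before the start. The Ltbp1 window held a cAMP response element that began 73 bases before the start, the only one among the 8 matched genes. Of all windows of this length, 12.4% held TATAAA, 32.7% held GGGCGG and 1.55% held TGACGTCA. These matches describe letters, and no factor binding was measured.

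The libraries held 25045167 to 38593706 UMIs (unique molecular identifiers, 1 for each captured transcript molecule) and 5750 to 8943 nuclei after filtering, and pairs of libraries shared 14 to 28 barcodes, at most 0.341% of the smaller library. Nuclei were clustered without the 10 members, and clusters were named from marker genes. The 8 cell types with at least 50 nuclei in every library were fibroblast-like (12272 nuclei), endothelial-like (7087), cardiomyocyte-like (6624), macrophage-like (2450), pericyte-like (2188), endocardial-like (1348), lymphatic endothelial-like (792) and smooth muscle-like (530), and the suffix is dropped below. In each, at least 6 of its 6 to 8 markers were at their highest level among the named types. Ccna2, which encodes the transgene product cyclin A2, stood in cardiomyocytes at 444 CPM (UMI counts scaled to a common total) in the nTg library, 0.519 and 812 in the Tg female libraries and 230.5 and 144 in the Tg male libraries. The high value of the library labelled nTg and the value near 0 of the library labelled Tg female 1 go against those labels. Libraries are therefore called by label only, and the members' differences between the sexes with an unadjusted p under 0.05 are also given without Tg female 1, by value or by sign.

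Each level below is the CPM of the UMIs summed over a cell type in 1 library. A mean ± SD is over the 5 libraries (n = 5), which differ in sex and label, and differences between cell types are descriptions without a test. The counts are not scaled by gene length, so levels are compared within a gene and not between genes. Over the 8 types, the highest mean of a member was 5.09 times (Tgfbr1) to 177 times (Ltbp1) its lowest mean. For all 10 members the 5 libraries of the highest type lay above the 5 libraries of the lowest. Between neighbours in the order of levels, the libraries overlapped in 51 of 70 cases and lay apart in 19.

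**Figure D1:**
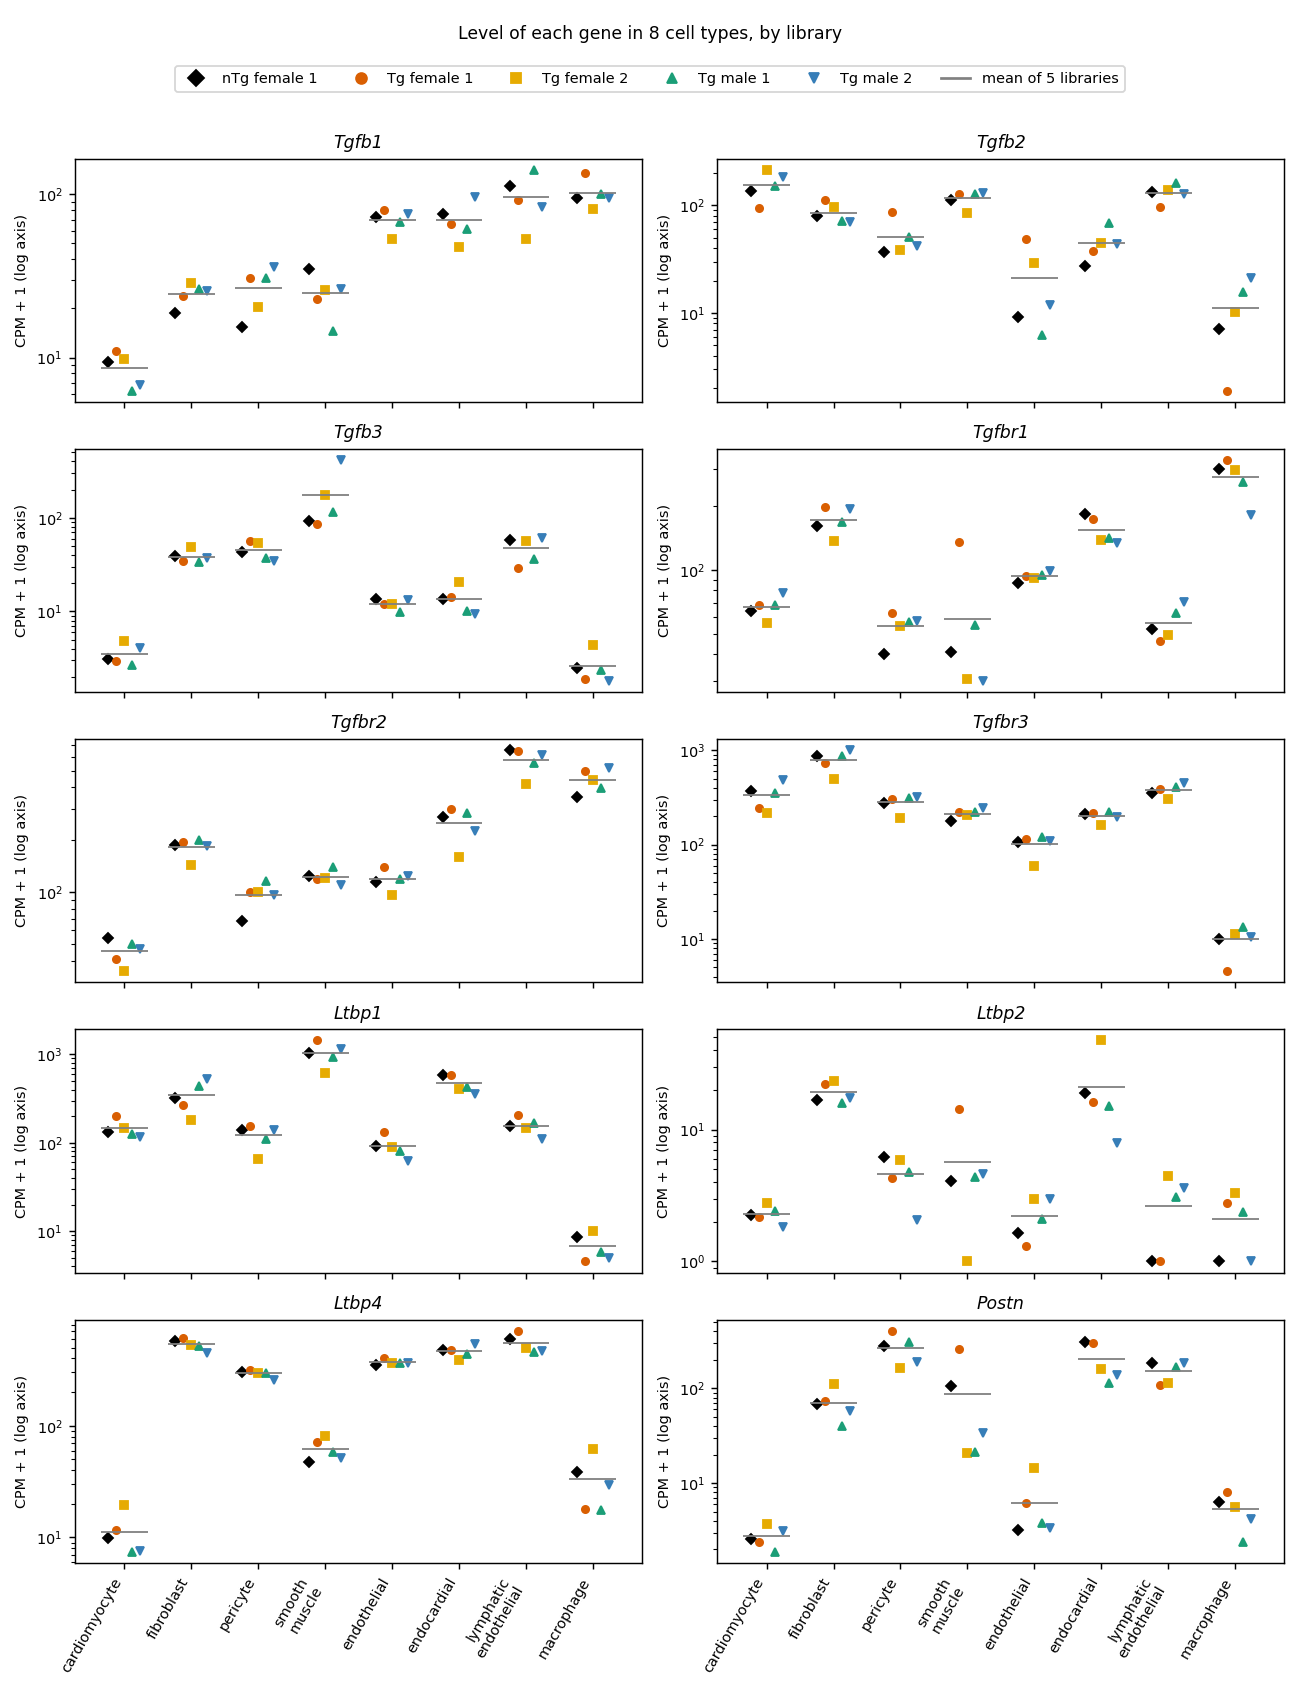
Level of each of the 10 genes in 8 cell types, as CPM + 1 on a log axis, with 1 point per library and a grey line at the mean of 5 libraries. Tgfb1 is lowest and Tgfb2 has its highest mean in cardiomyocytes, Tgfbr3 and Ltbp1 are lowest in macrophages, and Ltbp1 stands highest in smooth muscle in each library.

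The 3 ligands had different distributions over cell types. Tgfb1 (chr7:25687002-25705077, plus strand, GRCm38 as all positions below), the ligand best known from immune cells and platelets, had its highest mean in macrophages. The macrophage levels were 94.2 CPM in the nTg library, 135 and 80.1 in the Tg female libraries and 99.5 and 93.4 in the Tg male libraries (mean 100.4 ± 20.4). Lymphatic endothelial nuclei (95.3 ± 32.8 CPM), endothelial nuclei (68.9 ± 10.5) and endocardial nuclei (68.3 ± 18.5) followed, each overlapping its neighbour, although no endothelial library reached the lowest macrophage library. A gap separated these types from pericytes (25.6 ± 8.35), smooth muscle (23.8 ± 7.28) and fibroblasts (23.6 ± 3.67), and another separated fibroblasts from cardiomyocytes, the lowest at 7.63 ± 2.02 CPM. Unnamed cluster 17 (259 nuclei, led by Gm2682, Skap1 and Igkc), in which lists of B cell and of T and NK cell markers were both raised, had 139 ± 39.9 CPM, above all 8 types in 4 of 5 libraries.

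Tgfb2 (chr1:186622792-186705989, minus strand), a ligand with a known role in valve and septum development, had its highest mean in cardiomyocytes. The cardiomyocyte levels were 136 CPM in the nTg library, 94.2 and 211 in the Tg female libraries and 149 and 184 in the Tg male libraries (mean 155 ± 44.9). The lowest and the highest of these 5 values came from the Tg female libraries. Cardiomyocytes held 62.4% of all Tgfb2 UMIs and fibroblasts 23.8%, as means of 5 libraries. Lymphatic endothelial nuclei (129.9 ± 23.2 CPM), smooth muscle (115 ± 18.8) and fibroblasts (84.3 ± 17.6) followed, each overlapping its neighbour. Endothelial nuclei (19.98 ± 17.7) and macrophages (10.1 ± 7.41) were lowest. The 114 mesothelial nuclei, the cell type that covers the outer surface of the heart, had 230.5 ± 73.6 CPM from 97 UMIs and exceeded all 8 types in 4 of 5 libraries.

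Tgfb3 (chr12:86056745-86079041, minus strand) was highest in smooth muscle, where every library lay above every library of the other 7 types. The smooth muscle levels were 92.2 CPM in the nTg library, 83.9 and 174 in the Tg female libraries and 115 and 412 in the Tg male libraries (mean 175 ± 137). Tg male 2 stood far above the other libraries, and without it the mean was 116 CPM. Lymphatic endothelial nuclei (46.9 ± 14.4 CPM), pericytes (44.2 ± 9.75) and fibroblasts (37.5 ± 5.91) came next, each overlapping its neighbour. Cardiomyocytes (2.52 ± 0.905) and macrophages (1.61 ± 1.07) were lowest. Fibroblasts, the most numerous nuclei, held 53.4% of Tgfb3 UMIs against 10.9% in smooth muscle.

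**Figure D2:**
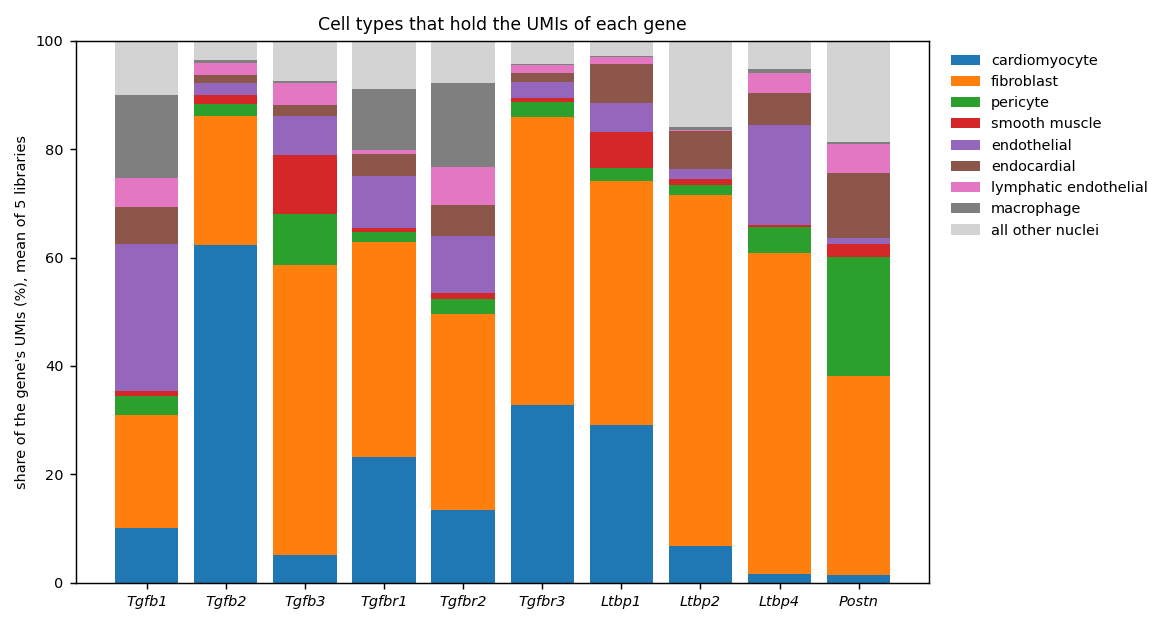
Share of each gene's UMIs in each of the 8 cell types and in all other nuclei, in percent, as the mean of 5 libraries. Cardiomyocytes hold 62.4% of Tgfb2 UMIs, while fibroblasts hold 64.6% of Ltbp2, 59.3% of Ltbp4, 53.4% of Tgfb3 and 53.0% of Tgfbr3 UMIs.

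Both signalling receptors were high in macrophages, but their order over the other types differed. Tgfbr1 (chr4:47353222-47414931, plus strand), the type 1 receptor kinase, stood in macrophages at 298 CPM in the nTg library, 328 and 293 in the Tg female libraries and 258 and 181 in the Tg male libraries (mean 272 ± 56.3). Fibroblasts (170.4 ± 24.7 CPM) and endocardial nuclei (153 ± 23.3) followed, and every endocardial library lay above every endothelial one (92.1 ± 4.16). Cardiomyocytes (66.0 ± 7.91), smooth muscle (57.4 ± 44.2), lymphatic endothelial nuclei (55.4 ± 10.1) and pericytes (53.4 ± 8.50) stood at the low end, each overlapping its neighbour. Unnamed cluster 15 (371 nuclei, led by Dkk3, Wif1, Kcnma1, Cadps and Prg4) had 352 ± 56.7 CPM and exceeded all 8 types in 4 of 5 libraries.

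Tgfbr2 (chr9:116084293-116175360, minus strand), the receptor that binds ligand first, had its highest mean in lymphatic endothelial nuclei. These held 653 CPM in the nTg library, 646 and 415 in the Tg female libraries and 551 and 612 in the Tg male libraries (mean 576 ± 98.3). Macrophages, at 352 CPM in the nTg library, 497 and 443 in the Tg female libraries and 396 and 514 in the Tg male libraries, overlapped them. Below a gap came endocardial nuclei (247 ± 57.3 CPM) and fibroblasts (181 ± 22.4), and below another gap smooth muscle (121 ± 11.2), endothelial nuclei (118 ± 15.7) and pericytes (94.6 ± 17.2). Cardiomyocytes were lowest at 44.4 ± 7.58 CPM, and none of their libraries reached the lowest pericyte library.

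Tgfbr3 (chr5:107106570-107289629, minus strand), the betaglycan co-receptor, was highest in fibroblasts, where every library lay above every library of the other 7 types. The fibroblast levels were 874 CPM in the nTg library, 739 and 490.1 in the Tg female libraries and 865 and 997 in the Tg male libraries (mean 793 ± 192). Tg female 2 was the lowest of these. Lymphatic endothelial nuclei (379 ± 54.2 CPM) and cardiomyocytes (332 ± 107) came next. Fibroblasts held 53.0% and cardiomyocytes 32.9% of Tgfbr3 UMIs. Endothelial nuclei had 101 ± 24.4 CPM and macrophages only 9.01 ± 3.33, so the type with the highest mean of Tgfbr1 had the lowest of Tgfbr3.

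Ltbp1 (chr17:75005568-75392512, plus strand), which ties latent TGF-β to fibrillin and fibronectin in the matrix, separated smooth muscle from the rest. The smooth muscle levels were 1029 CPM in the nTg library, 1435 and 615 in the Tg female libraries and 942 and 1141 in the Tg male libraries (mean 1032 ± 299). No library of the other 7 types reached the lowest of these. Endocardial nuclei had 468 ± 102 CPM and fibroblasts 347 ± 137, and fibroblasts held 45.1% of Ltbp1 UMIs. Lymphatic endothelial nuclei (156 ± 35.9), cardiomyocytes (144 ± 33.0), pericytes (121 ± 35.3) and endothelial nuclei (90.1 ± 25.6) overlapped in sequence, and macrophages were lowest at 5.83 ± 2.44.

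Ltbp2 (chr12:84783212-84876532, minus strand) was the sparsest member. Its protein lies on microfibrils and, unlike those of Ltbp1 and Ltbp4, is known not to bind latent TGF-β. The mean was 20.1 ± 15.2 CPM in endocardial nuclei and 18.2 ± 3.46 in fibroblasts, and at most 4.70 CPM in the other 6 types. With a stricter filter on nuclei the endocardial mean was 33.2 CPM. Fibroblasts held 64.6% of its UMIs. Unnamed cluster 15 held 46.1 CPM in the nTg library, 40.1 and 171 in the Tg female libraries and 57.9 and 111 in the Tg male libraries (mean 85.1 ± 55.4, 91 UMIs in all). It exceeded all 8 types in each of the 5 libraries.

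Ltbp4 (chr7:27305136-27337692, minus strand), an elastic fibre protein that can bind the latent product of Tgfb1, was broad among stromal and endothelial types and low in cardiomyocytes. Lymphatic endothelial nuclei held 601 CPM in the nTg library, 709 and 491 in the Tg female libraries and 457 and 465 in the Tg male libraries (mean 545 ± 109). Fibroblasts (536 ± 63.1 CPM), endocardial nuclei (462 ± 57.3) and endothelial nuclei (369 ± 21.1) followed with overlap between neighbours. Pericytes (293 ± 23.8) lay above smooth muscle (60.8 ± 13.9) without overlap, the reverse of their order for Ltbp1. Macrophages had 32.0 ± 18.2 and cardiomyocytes 10.2 ± 5.03 CPM.

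Postn (chr3:54361109-54391037, plus strand) had its highest mean among the 8 types in pericytes. With a stricter filter on nuclei, endocardial nuclei led instead, at 279 CPM against 262 in pericytes. The pericyte levels were 281 CPM in the nTg library, 407 and 164 in the Tg female libraries and 306 and 188 in the Tg male libraries (mean 269 ± 97.7). Endocardial nuclei had 204 ± 93.7 CPM, lymphatic endothelial nuclei 152 ± 38.5 and smooth muscle 86.8 ± 101, and neighbours overlapped. Fibroblasts had 69.7 ± 26.7 CPM, while endothelial nuclei, macrophages and cardiomyocytes were at 5.14, 4.31 and 1.73. Outside the 8 types, unnamed cluster 15 reached 603 ± 121 CPM and the 173 Schwann nuclei 506 ± 253. Of all marker lists, cluster 15 scored highest on that of fibroblasts, but only 1 of those markers was raised. It was therefore not counted with fibroblasts, and the fibroblast level depends on this naming rule. By number of UMIs fibroblasts held 36.7% of Postn and pericytes 22.0%.

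Shares of nuclei with at least 1 UMI of a gene were compared after thinning each nucleus to 1000 UMIs, which left out 839 of 33291 nuclei as too shallow. As means of 5 libraries, Ltbp1 was then found in 52.2% of smooth muscle nuclei and 0.492% of macrophages, the type with its lowest level. Tgfbr3 was found in 49.7% of fibroblasts and 0.896% of macrophages. Postn was found in 21.5% of pericytes, 3.62% of fibroblasts and 0.194% of cardiomyocytes. Tgfb2 was found in 13.8% of cardiomyocytes and 0.797% of macrophages. Without thinning the Tgfb2 share in cardiomyocytes was 50.8%, where the median nucleus held 6980.5 UMIs, and 1.77% in macrophages, where it held 2255.5. Free RNA in the suspension was not measured. The share in the lowest type serves as a reference only. Leading and lowest types were picked by level in the same data, so the gap between their shares does not measure free RNA.

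Inside fibroblasts, Postn and Ltbp2 were highest in the same sub-cluster. Fibroblast sub-cluster 2 (3981 nuclei, led by Tmem100, Cd248, Duox1, Duoxa1 and Limch1) had Postn at 178 CPM in the nTg library, 163 and 215 in the Tg female libraries and 101 and 146 in the Tg male libraries (mean 161 ± 41.9). Sub-cluster 1 (4555 nuclei, led by Kcnip1, Necab1, Gm11844, Tenm4 and Notch3) had 26.2 ± 21.3 CPM and sub-cluster 3 (3724 nuclei, led by Nkain2, Chrm3, Il1rapl1, Acss3 and Inmt) 21.1 ± 17.7. Every library of sub-cluster 2 lay above every library of sub-clusters 1 and 3. The same held for Ltbp2, at 41.8 ± 8.65 CPM in sub-cluster 2 against 6.44 ± 1.60 and 6.05 ± 2.47, and for Tgfb1, at 36.0 ± 6.54 against 19.4 ± 3.09 and 15.3 ± 2.91. Ltbp1 had its lowest mean there, at 267 ± 94.1 CPM against 408 ± 152 and 365 ± 164, although its libraries overlapped. A further sub-cluster of 12 nuclei was not compared.

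Endocardial nuclei came from 2 clusters, which differed in the same pair of genes. Cluster 16 (296 nuclei, led by Kcnc2, Hapln1, Hecw1, Pkhd1l1 and Fam155a, of which Hapln1 encodes a hyaluronan link protein) had Postn at 759 CPM in the nTg library, 948 and 395 in the Tg female libraries and 445 and 848 in the Tg male libraries (mean 679 ± 246). Cluster 10 (1052 nuclei, led by Nrg1, Npr3, Tmem108, Smoc1 and Vwf) had 58.0 ± 37.3 CPM. Ltbp2 was at 68.7 ± 38.5 CPM in cluster 16, from 62 UMIs, and at 1.67 ± 2.01 in cluster 10, from 6 UMIs. For both genes every library of cluster 16 lay above every library of cluster 10. Ltbp4 had the reverse order without overlap, at 510.4 ± 53.8 CPM in cluster 10 and 318 ± 32.1 in cluster 16. Tgfb2 in cluster 16 was at 17.7 CPM in the nTg library, 29.1 and 32.4 in the Tg female libraries and 202 and 136 in the Tg male libraries. Both male libraries were above all 3 female ones, on 30 and 13 UMIs against 4, 8 and 5, a split that was seen in the values and not tested.

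Inside endothelial nuclei, Tgfb2 had its highest means in sub-clusters 3 and 4. Sub-cluster 3 (1610 nuclei, led by Nebl, Slc45a4, Alpl, Alox12 and Tec) had a mean of 58.5 ± 56.5 CPM, and sub-cluster 4 (581 nuclei, led by Cytl1, Efna5, Ptprj, Atp2b2 and Dkk2) 37.3 ± 30.9. Sub-clusters 1 (2822 nuclei, led by Kit, Gm46565, Adam19, Nos2 and Dlg2) and 2 (1960 nuclei, led by Kcnc2, Kirrel3, Col13a1, G630055G22Rik and Igfbp5) had 4.64 ± 2.65 and 5.996 ± 7.04 CPM. Libraries overlapped, as sub-cluster 2 reached 18.4 CPM, above the lowest libraries of sub-clusters 3 (11.6) and 4 (18.2). Ltbp4 was also highest in sub-clusters 4 (603 ± 53.9 CPM) and 3 (507 ± 45.8), against 319.5 ± 19.8 in sub-cluster 2 and 276 ± 15.4 in sub-cluster 1. Tgfbr3 had the opposite order of means, from 148 ± 43.1 CPM in sub-cluster 1 through 82.6 ± 26.7 and 66.4 ± 9.66 to 42.6 ± 12.5 in sub-cluster 4. The small sub-cluster 5 (85 nuclei) had Tgfb2 at 23.9 ± 27.6 CPM, Ltbp4 at 422 ± 86.4 and Tgfbr3 at 82.5 ± 38.8. Sub-cluster 6, of 29 nuclei, was not compared.

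**Figure D3:**
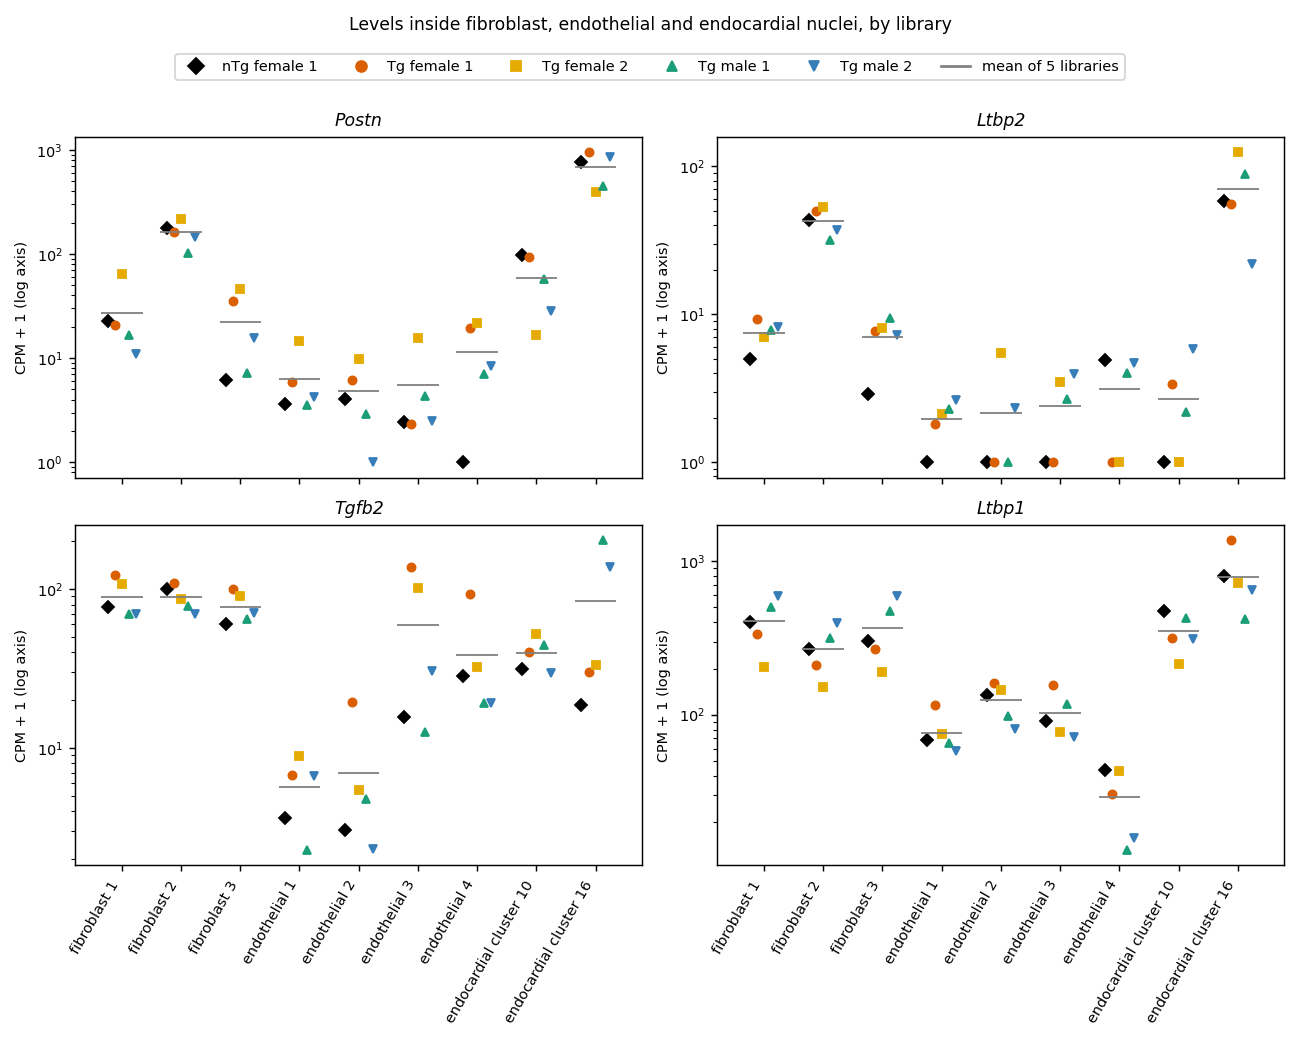
Levels of Postn, Ltbp2, Tgfb2 and Ltbp1 as CPM + 1 on a log axis in 3 fibroblast sub-clusters, 4 endothelial sub-clusters and 2 endocardial clusters, with 1 point per library and a grey line at the mean of 5 libraries. Postn and Ltbp2 are highest in fibroblast sub-cluster 2 and endocardial cluster 16, and in endothelial sub-cluster 3 the Tgfb2 points of both Tg female libraries lie above the other 3.

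Likeness of profiles was described by Pearson's r of log2(CPM + 1) over the mean levels in the 10 named cell types, among 12133 genes with at least 20 CPM in one of them. The points share libraries and depth, and no test is attached. The gene most like Tgfb1 was Dpp8 (r = 0.979), and Tgfbr2 was most like Tgfbrap1 (r = 0.966), which encodes a protein that associates with TGF-β receptors. Tgfb2 was most like Pafah2 (r = 0.952), Tgfb3 like Esyt2 (r = 0.944) and Tgfbr1 like Cd200r1 (r = 0.939). Ltbp1 was most like Usp47 (r = 0.929), Ltbp2 like Vit (r = 0.936), Ltbp4 like Zfp248 (r = 0.967) and Postn like P3h3 (r = 0.937), a collagen prolyl hydroxylase. Among the members themselves, Tgfb2 and Tgfbr3, the ligand and the co-receptor it most needs, had the highest correlation (r = 0.79), and Tgfb1 and Tgfb2 the lowest (r = -0.71).

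Of 37 other genes of the pathway, the 2 with the highest level in each of 6 roles are named. Of the SMAD signal carriers, Smad3 had its highest mean in fibroblasts (147 ± 26.2 CPM) and Smad2 in lymphatic endothelial nuclei (143 ± 21.5). Of the inhibitors, Smad6 stood at 460.4 ± 175 CPM in endocardial and 171 ± 42.1 in endothelial nuclei, and Smad7 at 345 ± 126 and 288 ± 65.0. The accessory receptors also peaked there, with Eng (endoglin) at 1439 ± 249 CPM in endocardial and Acvrl1 at 112 ± 17.0 in endothelial nuclei. Fibroblasts came next for Acvrl1, at 69.9 ± 4.11 CPM without overlap. Nrros, which holds latent TGF-β on myeloid cells, stood at 553 ± 107 CPM in macrophages, where Ltbp1 was lowest, against 76.2 ± 23.7 in endothelial nuclei, the next type. Fbn1, the fibrillin to which latent complexes attach, had 448 ± 53.6 CPM in pericytes and 412 ± 59.9 in fibroblasts. The ligand-binding proteoglycans Dcn and Bgn were highest in fibroblasts, at 3121 ± 644 and 427 ± 63.6 CPM. Of the target genes, Acta2 and Tagln were highest in smooth muscle, at 1922 ± 241 and 961 ± 111 CPM.

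Female and male hearts were compared within the Tg label, with 2 libraries a sex in each of the 8 types, by edgeR's quasi-likelihood test on summed counts with Benjamini-Hochberg adjustment over all genes tested. No label says that the libraries came from separate animals, so p-values measure only the spread between libraries. Of 70 tests of members, 0 had an adjusted p under 0.05. Over all genes in the same 8 fits 0.208% did (180 of 86739), with 0.0262% in cardiomyocytes, 0.181% in endocardial nuclei, 0.138% in endothelial nuclei, 0.504% in fibroblasts, 0.134% in lymphatic endothelial nuclei, 0.22% in macrophages, 0.155% in pericytes and 0.276% in smooth muscle. At an unadjusted p under 0.05 there were 17 of 70 member tests (24.3%), against 7.84% of all gene tests, and DESeq2 called 3 of the 70 after adjustment, against 565 of 86739 over all genes. With 1 library left out edgeR called 11 of 71 without Tg female 1 (all genes 2676 of 91244), 9 of 71 without Tg female 2 (1465 of 93338), 2 of 72 without Tg male 1 (810 of 91290) and 3 of 72 without Tg male 2 (664 of 94744), where the lone library of a sex is assumed to vary like the pair. Postn in pericytes was called in opposite directions, at -0.61 without Tg female 1 and 0.70 without Tg female 2. Where a member averaged at least 10 CPM, the female and male libraries did not overlap in 26 of 64 cases (40.6%), near the 37.3% of all such genes. The median log2 difference of the members, female minus male, ran from -0.31 in lymphatic endothelial nuclei (9 tested) to 0.24 in cardiomyocytes (10 tested), and the median over all genes lay between 0.00 and 0.02 in each type.

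**Figure D4:**
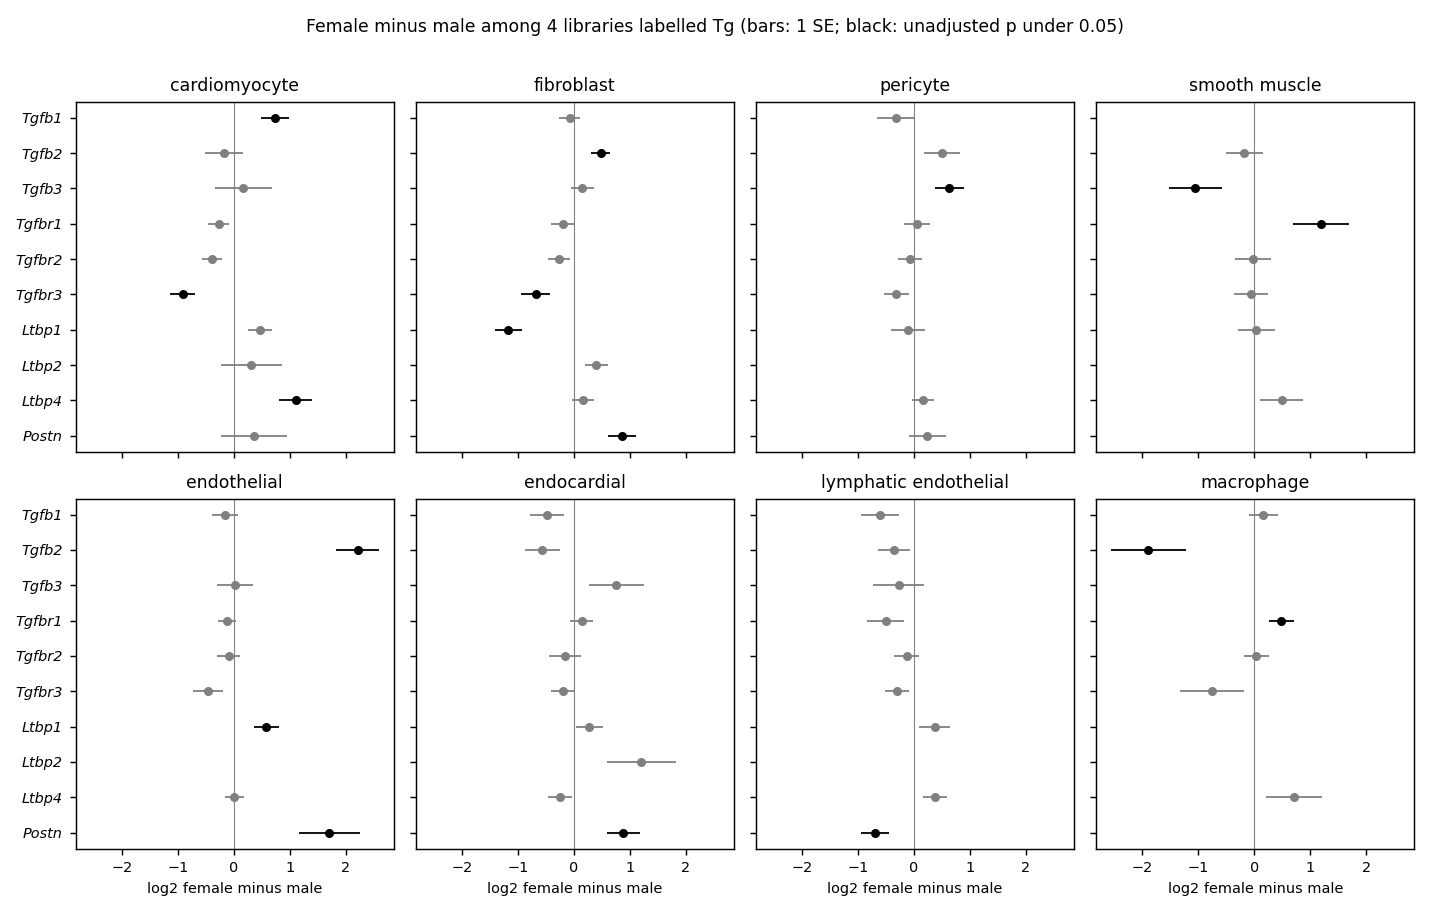
Log2 difference female minus male of each member in 8 cell types, from edgeR on 2 female and 2 male libraries labelled Tg, with bars of 1 SE, and black points where the unadjusted p is under 0.05. No member has an adjusted p under 0.05, and the value farthest above 0 among these black points is Tgfb2 in endothelial nuclei at 2.22.

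Tgfb2 in endothelial nuclei had the smallest p of any member. Its levels were 47.4 and 28.2 CPM in the female and 5.20 and 10.9 CPM in the male Tg libraries (log2 difference 2.22, SE 0.38; edgeR adjusted p = 0.109). Both female libraries lay above both male ones. DESeq2 gave an adjusted p of 6.37e-04, and over all 11 alternatives the edgeR or DESeq2 adjusted p ran from 6.47e-12 to 0.806, with the difference between 1.55 and 2.82. The highest of these came with the nTg library added as a female, since it had 8.21 CPM and lay with the males. Without Tg female 1 the difference was 1.74 (edgeR adjusted p = 0.0411). In sub-cluster 3 alone, Tgfb2 was at 14.6 CPM in the nTg library, 136 and 101 in the Tg female libraries and 11.6 and 29.5 in the Tg male libraries, and this sub-cluster made up 18.7% to 24.6% of endothelial nuclei in each library. In endothelial nuclei the 7 cardiomyocyte markers, all with UMIs in every library, summed to 1211 and 1244 CPM in the female and 967 and 1021 in the male Tg libraries and 1443 in the nTg library. The 8 fibroblast markers, also all with UMIs, summed to 238 and 609.7, 193 and 143 and 251 CPM, highest in Tg female 2, and without that library the Tgfb2 difference was 2.54. The part of either list in the Tgfb2 difference was not tested.

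**Figure D5:**
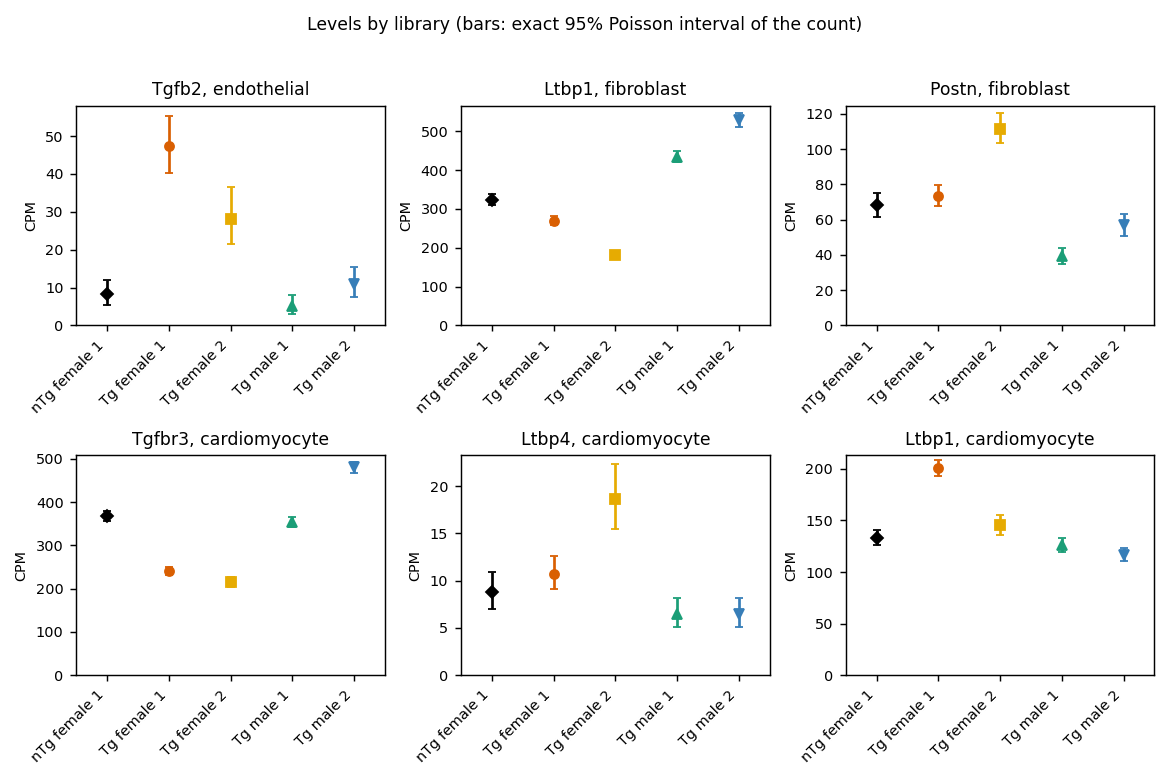
Level in CPM of 6 pairs of a member and a cell type by library, with exact 95% Poisson intervals of the count, which cover counting error only. Tgfb2 in endothelial nuclei is at 47.4 and 28.2 CPM in the Tg female libraries and at most 10.9 CPM in the other 3, and Ltbp1 in fibroblasts is lower in both Tg female libraries than in the Tg male ones.

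Ltbp1 in fibroblasts lay lower in the female libraries, at 270.0 and 181 CPM against 435 and 528 CPM in the male Tg libraries and 323 in the nTg library (log2 difference -1.18, SE 0.24; edgeR adjusted p = 0.105). DESeq2 gave an adjusted p of 2.26e-04, and the adjusted p over all 11 alternatives ran from 7.51e-06 to 0.398. The female Tg libraries were below the male ones in each of the 3 fibroblast sub-clusters. Without Tg female 1 the difference was -1.54 (edgeR adjusted p = 3.90e-04). The 6 smooth muscle markers, all with UMIs in every library, summed to 207 and 155 CPM in female and 159.6 and 134 in male fibroblasts, and their part was not tested. In cardiomyocytes Ltbp1 was at 200.5 and 146 CPM in the female and 126 and 117 in the male libraries (log2 difference 0.48, SE 0.21; edgeR adjusted p = 0.732), and in endothelial nuclei at 131 and 87.6 against 79.7 and 61.1 (log2 difference 0.58, SE 0.23; edgeR adjusted p = 0.490). The endothelial difference without Tg female 1 was 0.22, and with doublets kept it reversed to -0.071.

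Postn in fibroblasts was at 73.4 and 111 CPM in the female and 39.2 and 56.7 CPM in the male Tg libraries, and 68.0 in the nTg library (log2 difference 0.86, SE 0.25; edgeR adjusted p = 0.245). Without Tg female 1 the difference was 1.10 (edgeR adjusted p = 0.00908), and without Tg male 2 it was 1.14 (edgeR adjusted p = 0.0348). In endocardial nuclei Postn was at 304 and 159 CPM in the female and 114 and 136 in the male libraries (log2 difference 0.88, SE 0.30; edgeR adjusted p = 0.491). This difference without Tg female 1 was 0.27 (edgeR adjusted p = 0.691). The Postn-rich cluster 16 made up 23.6 and 38.5% of endocardial nuclei in those female libraries, 13.2 and 12.8% in the male ones and 29.9% in the nTg library, and within cluster 16 the sexes overlapped. In lymphatic endothelial nuclei the order was reversed, with 107 and 114 CPM in female and 169 and 183 in male libraries (log2 difference -0.70, SE 0.25; edgeR adjusted p = 0.598), and without Tg female 1 the difference was -0.64.

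In cardiomyocytes the co-receptor Tgfbr3 was at 241 and 215 CPM in the female and 354 and 480.4 in the male Tg libraries, and 368 in the nTg library (log2 difference -0.91, SE 0.22; edgeR adjusted p = 0.410). DESeq2 gave an adjusted p of 0.0156, and without Tg female 1 the difference was -1.04 (edgeR adjusted p = 0.0646). Ltbp4 in cardiomyocytes was at 10.7 and 18.7 CPM in the female and 6.47 and 6.52 in the male libraries (log2 difference 1.11, SE 0.29; edgeR adjusted p = 0.464), and without Tg female 1 its difference was 1.44 (edgeR adjusted p = 0.0338). Different clusters held most cardiomyocytes in the female and the male Tg libraries, and the nTg female library was like the male ones. Cluster 6, with the stress genes Ankrd1 and Nppb among its leading genes, held 68.7 and 81.1% in the female and 3.04 and 3.83% in the male Tg libraries and 7.86% in the nTg library, while cluster 3 held 19.7 and 8.66%, 90.7 and 92.3% and 86.7%. Within cluster 3 Tgfbr3 was at 293 and 298 CPM in the female and 357 and 487 in the male libraries, without overlap. This cluster held only 19.7 and 8.66% of the female cardiomyocytes. The female values there were higher than the 241 and 215 CPM of all cardiomyocytes. Tgfbr3 within cluster 6 is not reported here, and the part of the cluster make-up in its difference was not tested. Ltbp4 within cluster 3 was at 13.9 and 16.02 CPM in the female and 6.03 and 5.24 in the male libraries, but within cluster 6 it was at 9.02 and 17.4 CPM in the female and 18.0 and 23.9 in the male libraries, the opposite order, on 6 and 13 UMIs in the male ones. The 8 fibroblast markers, 7 or 8 of them with UMIs, summed to 75.7 and 169 CPM in female and 55.2 and 52.1 in male cardiomyocytes, and their part in the Ltbp4 values was not tested.

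The other members with an unadjusted p under 0.05 went in both directions. Tgfb2 in fibroblasts was at 109.9 and 94.5 CPM in female and 69.7 and 69.0 in male libraries (log2 difference 0.48, SE 0.17; edgeR adjusted p = 0.358), and without Tg female 1 the difference was 0.32. Tgfb2 in macrophages, its lowest type and the reference above, was at 0.886 and 9.16 against 14.6 and 19.96 CPM (log2 difference -1.90, SE 0.67, edgeR adjusted p = 0.413). This became -0.95 without Tg female 1. Tgfbr3 in fibroblasts was at 739 and 490.1 against 865 and 997 CPM, the same direction as in cardiomyocytes (log2 difference -0.68, SE 0.26; edgeR adjusted p = 0.413), and without Tg female 1 the difference was -1.05 (edgeR adjusted p = 0.00291). The rest were Tgfb1 in cardiomyocytes, Tgfb3 in pericytes and smooth muscle, Tgfbr1 in macrophages and smooth muscle and Postn in endothelial nuclei, with adjusted p between 0.370 and 0.915 from edgeR. Without Tg female 1, Tgfbr1 in smooth muscle reversed to -0.39, Postn in endothelial nuclei was at 2.29 (edgeR adjusted p = 0.0411) and the other 4 kept their sign. Tgfb3 in smooth muscle reversed to 0.13 without Tg male 2. A missed threshold at 2 libraries a sex does not show that the sexes were alike.

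Of 224 tests of the other pathway genes, 0 were called by edgeR, 44 (19.6%) had an unadjusted p under 0.05, against 7.84% of all gene tests, and DESeq2 called 5, against 565 of 86739 over all genes. By role the unadjusted count was 0 of 24 for SMADs, 10 of 55 for inhibitors, 0 of 15 for accessory receptors, 4 of 57 for latency and activation genes, 8 of 17 for matrix binders and 22 of 56 for target genes. The median log2 difference was 0.81 for matrix binders and between -0.08 and 0.23 for the other roles. Of the matrix binders, Dcn, which fibroblasts hold at a high level, was highest in Tg female 2 in 6 of the 8 types. In endothelial nuclei it was at 89.1 and 308 CPM in the female and 93.9 and 68.7 in the male libraries. The 8 fibroblast markers, all with UMIs in these nuclei, summed there to 238 and 609.7 CPM in the female and 193 and 143 in the male libraries, and in cardiomyocytes to 75.7 and 169 against 55.2 and 52.1. Their part in the shift of the matrix binders was not tested. Without the filter on low counts, edgeR called 15 of 293 pathway tests, against 1785 of 162926 over all genes. Counts with 1 library left out are given below.

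The label contrast rests on 1 nTg library and has no test. Ccna2 in cardiomyocytes, at 444 CPM in this library and 0.519 in Tg female 1, goes against both labels. The contrast is therefore one of labels and not of known genotypes. Of member levels with at least 10 CPM in the higher arm, 1 of 65 (1.54%) differed more than 2-fold from the mean of the Tg female libraries and lay outside their range, against 8.31% of all genes over the 8 types. By type, the share of all genes was 2.23% in cardiomyocytes, 9.38% in endocardial nuclei, 2.99% in endothelial nuclei, 2.14% in fibroblasts, 15.9% in lymphatic endothelial nuclei, 5.28% in macrophages, 6.79% in pericytes and 20.6% in smooth muscle. The 1 level was Tgfb2 in endothelial nuclei, at 8.21 CPM from 26 UMIs in the nTg library (exact Poisson interval 5.36 to 12.02 CPM, counting error only), against 47.4 and 28.2 CPM in the Tg female libraries, a log2 difference of -2.20. The comparison of the sexes uses the same Tg female values. Over the 65 levels the median log2 difference was -0.02. Without Tg female 1 the count past 2-fold was 7 of 67 levels, against 15.3% of all genes, and without Tg female 2 it was 8 of 66, against 9.11%. The members' share was thus below that of all genes in the former and above it in the latter.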

How the data were processed

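Nuclear RNA of adult mouse hearts was counted by the authors as UMIs per gene and barcode, and the deposited matrices hold whole-number counts without normalization. Counting used Cell Ranger 7.0.0, per the file headers, and the mm10 build, per the submitters' processing notes. The annotation, the use of strand and introns and the cell-calling rule are not given in the sources used here. Counts of Tgfb2, Tgfb3, Tgfbr3, Ltbp1 and Ltbp2 may include those of overlapping genes.

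Here, barcodes with at least 200 genes and under 5% mitochondrial UMIs were kept. The 8% of barcodes with the highest Scrublet doublet score in each library were removed, a rule chosen after seeing the data because the automatic threshold called 0% in Tg female 2. Nuclei were clustered with scanpy 1.11.5 and leidenalg 0.10.2 (2000 variable genes, 30 components, 15 neighbours, resolution 1), without the members, Ccna2 and sex-linked genes. The UMIs of each cell type were added up within a library, and genes kept by filterByExpr were tested with edgeR 4.0.16 (TMM, quasi-likelihood), with DESeq2 1.42.0 as an alternative. The edgeR steps were tested on simulated data. Clusters without clear markers stayed unnamed, and the rules for names were set with earlier clusterings known. Positions follow GENCODE M21 (GRCm38), and of several RefSeq starts the one nearest the annotated start was used. The text names the 10 members, Ccna2, the 2 most abundant genes of each pathway role, the gene most like each member (of 3 that the rule allows; that of Tgfbr3 is not reported here) and the 5 leading genes of each sub-cluster. The endocardial clusters were singled out after their values were seen. Members and lists were chosen with earlier results of these data known. Alternatives were other tests, filters, scalings, clusterings and left-out libraries.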

Additional observations from a re-analysis of the deposited data

Results flagged for a closer look

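Of 81 levels of a member in a named cell type, 6 (7.41%) had 1 library far from the other 4 by Dixon's criterion, which chance alone meets in about 1 of 20 groups. Ltbp1 in Schwann nuclei was at 176 CPM in nTg female 1, from 9 UMIs, and between 52.9 and 88.5 CPM in the other libraries. Ltbp2 in endocardial nuclei was at 46.4 CPM in Tg female 2, from 19 UMIs, against 6.94 to 18.1. Tgfb2 in pericytes was at 84.8 CPM in Tg female 1 against 36.1 to 49.98. Tgfb3 in smooth muscle was at 411.5 CPM in Tg male 2 against 83.9 to 173.5, and Tgfbr1 in smooth muscle at 134 CPM in Tg female 1 against 28.9 to 54.2. In smooth muscle the 6 endocardial markers, 3 to 6 of them with UMIs, summed to 356 CPM in Tg female 1. In the other libraries that sum ran from 14.4 to 70.7 CPM. The part of these markers in the Tgfbr1 value was not tested. Tgfbr3 in endothelial nuclei was at 58.9 CPM in Tg female 2 against 106 to 120.5.

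In 4 members the female and male Tg libraries lay apart in opposite directions in different cell types. The difference between the cell types was not tested. Over all genes averaging at least 10 CPM, the female and male libraries lay apart in 37.3% of cases, against 40.6% for members. How many of all genes did so in opposite directions was not counted. For Tgfb2 the log2 difference, female minus male, was 2.22 in endothelial nuclei, 0.48 in fibroblasts and -1.90 in macrophages, its lowest type. The mean of the male Tg libraries was 8.05 CPM in endothelial nuclei and 17.3 CPM in macrophages, so low values enter both differences. For Tgfbr1 the log2 difference was 0.49 in macrophages, -0.11 in endothelial nuclei and -0.51 in lymphatic endothelial nuclei. For Ltbp1 it was 0.48 in cardiomyocytes, 0.58 in endothelial nuclei and -1.18 in fibroblasts, and the endothelial value reversed to -0.071 with doublets kept. For Postn it was 0.88 in endocardial nuclei, 0.86 in fibroblasts and -0.70 in lymphatic endothelial nuclei.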

How the results depend on the processing

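The mean level of each member in its leading cell type moved by less than 1 SD under each of the 10 alternatives run for it, among them the one without nTg female 1 and Tg female 1. These SDs include the outlying libraries, and 2 means moved over 1.5 times: Ltbp2 in endocardial nuclei from 20.1 to 33.2 CPM with the stricter filter, and Tgfb3 in smooth muscle from 175 to 116 CPM without Tg male 2. The leading type among the 8 stayed the same in 89 of 100 checks, and the 11 exceptions concerned Tgfb1, Tgfb2, Ltbp2, Ltbp4 and Postn, whose highest and second types overlap. The number of members called between the sexes, 0 in edgeR, was 3 with DESeq2, 6 without the filter on low counts and 2 to 11 when 1 library was left out. For the pathway list it was 5, 15 and 5 to 26, and 1 with doublets kept. Over all genes 180 calls became 565 with DESeq2, 1785 without the filter, 63 with nTg female 1 added without a covariate, and 664 to 2676 with 1 library left out, the highest without Tg female 1. Fits without a library leave 1 sex with a single library. The cause of these differences was not tested. Calls higher in females were 22.8% of all calls, 29.4% without TMM and 46.2% without the filter.

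The replicate numbers of the labels do not say what they share. Same-numbered libraries deviated together weakly (correlation of deviations -0.005 to 0.13), so the replicate block is given only here. It called 3 of 70 member tests (Tgfb2 in endothelial nuclei, Ltbp1 and Postn in fibroblasts). Of the pathway tests it called 4 of 224, and over all genes 862 of 86739. The log2 difference between the sexes of Ltbp1 in endothelial nuclei reversed to -0.071 with doublets kept. With 1 library left out it ran from -1.67 to 0.13 for Tgfb3 in smooth muscle, above 0 without Tg male 2, and from -0.39 to 1.69 for Tgfbr1 in smooth muscle, below 0 without Tg female 1.

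Against nTg female 1, 1 of 65 member levels was past 2-fold, and 6853 of 82437 levels of all genes were (8.31%). Without Tg female 1 the counts were 7 of 67 for members and 12823 of 83643 for all genes (15.3%). Without Tg female 2 they were 8 of 66 and 7440 of 81660 (9.11%). At 30 CPM or more, with both Tg female libraries, they were 1 of 59 and 2057 of 49715 (4.14%). Without thinning, the share of nuclei with a UMI was 19.1% for Tgfb1 and 32.96% for Tgfbr1 in macrophages, 50.8% for Tgfb2 in cardiomyocytes, 20.8% for Tgfb3 and 72.2% for Ltbp1 in smooth muscle, 70.4% for Tgfbr2 and 68.2% for Ltbp4 in lymphatic endothelial nuclei, 77.2% for Tgfbr3 in fibroblasts, 2.44% for Ltbp2 in endocardial nuclei and 38.99% for Postn in pericytes.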
